A study of Mus musculus with 8 samples.

Results

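The genes of the insulin-like growth factor (IGF) system examined here are 1 ligand gene, 2 receptor genes, 2 receptor substrate genes and 4 binding protein genes. They were taken by symbol from the counts of gene expression in differentiated mouse embryonic stem cells. All 9 listed genes were among the 55487 genes of the count table, and 8 of them were among the 13280 genes with enough counts to be tested. Irs1 was too low to test. RNA was measured in 8 libraries. Of these, 4 were from the E14-Tg2a line with genotype WT (parental), and 4 were from line E14-Tg2a 4D with genotype Tbx1-/- (mutant). Cultures of both lines were differentiated in serum-free medium towards precardiac mesoderm and taken on day 6. All mutant libraries came from the 1 line 4D, so a property of that line and an effect of the genotype cannot be told apart. The labels call the 4 libraries of each line biological replicates without saying how the cultures were separated, so p-values measure only the spread between these libraries.

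IGF1 is a secreted peptide that binds the receptor tyrosine kinase IGF1R and, more weakly, the insulin receptor INSR. The active receptors phosphorylate the adaptor proteins IRS1 and IRS2, which recruit PI3-kinase and so activate AKT, while a second branch runs through RAS and MAP kinase. The classical binding proteins hold IGFs outside the cell and can block or prolong their action, and IGFs promote growth and survival of embryonic mesoderm and heart.

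Igfbp5 (ENSMUSG00000026185.8) and Igfbp2 (ENSMUSG00000039323.18) are neighbours on mouse chromosome 1 in build GRCm38. Igfbp2 lies on the plus strand from 72824503 to 72852474 and Igfbp5 on the minus strand from 72857932 to 72874884. They point towards each other, and 5457 bases separate their ends. Igfbp3 (ENSMUSG00000020427.11, chromosome 11, 7206086 to 7213923, minus strand) faces Igfbp1 in the same way across 3539 bases, and Igfbp4 (ENSMUSG00000017493.12) is elsewhere on chromosome 11, from 99041244 to 99054392 on the plus strand. Igf1 (ENSMUSG00000020053.18) is on chromosome 10 from 87858265 to 87937042, plus strand. Igf1r (ENSMUSG00000005533.10) is on chromosome 7 from 67952827 to 68233668, plus strand. Insr (ENSMUSG00000005534.10, 3122061 to 3279617) and Irs2 (ENSMUSG00000038894.7, 10984681 to 11008458) are both on the minus strand of chromosome 8. Irs1 (ENSMUSG00000055980.2) spans 82233101 to 82291416 of chromosome 1, minus strand.

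The sequences upstream of 4 members are shown because the results below turn on these genes: Igfbp5 passed the test and was higher in the mutant line, and Igfbp2, Igf1r and Irs2 were lower there in every library without passing it. Each stretch is the 230 bases from 250 to 21 bases before the RefSeq start, read 5′ to 3′ on the gene's strand from RefSeq sequence of build GRCm38.p6. Capitals mark GC boxes (GGGCGG or its reverse complement), the only one of the 4 searched motifs found in these stretches. The positions are chr1:72874886-72875115 (minus strand) for Igfbp5, chr1:72824230-72824459 (plus strand) for the first of 2 RefSeq starts of Igfbp2, chr7:67952007-67952236 (plus strand) for Igf1r and chr8:11008950-11009179 (minus strand) for Irs2.
Igfbp5: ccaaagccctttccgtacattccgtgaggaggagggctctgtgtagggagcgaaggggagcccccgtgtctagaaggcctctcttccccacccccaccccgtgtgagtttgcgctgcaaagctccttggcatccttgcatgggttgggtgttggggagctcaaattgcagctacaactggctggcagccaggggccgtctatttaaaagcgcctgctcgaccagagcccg
Igfbp2: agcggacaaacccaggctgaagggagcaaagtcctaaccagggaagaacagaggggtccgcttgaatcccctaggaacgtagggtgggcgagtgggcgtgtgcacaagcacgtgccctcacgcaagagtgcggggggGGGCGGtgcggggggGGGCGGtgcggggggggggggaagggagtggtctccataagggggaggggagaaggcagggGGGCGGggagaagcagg
Igf1r: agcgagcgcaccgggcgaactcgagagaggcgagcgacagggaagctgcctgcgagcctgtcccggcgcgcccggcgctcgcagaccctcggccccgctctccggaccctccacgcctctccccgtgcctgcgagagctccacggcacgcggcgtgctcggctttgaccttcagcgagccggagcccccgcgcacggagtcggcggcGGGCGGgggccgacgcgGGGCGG
Irs2: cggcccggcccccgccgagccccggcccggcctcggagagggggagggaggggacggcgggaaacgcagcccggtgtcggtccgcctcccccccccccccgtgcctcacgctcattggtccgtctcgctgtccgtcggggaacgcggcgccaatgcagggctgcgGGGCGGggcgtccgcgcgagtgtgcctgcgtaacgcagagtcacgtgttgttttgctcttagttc

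Upstream sequences were matched for 8 of the 9 members, Insr being the missing entry. The stretch of Igfbp5 had the lowest GC content of the 4 shown, at 60.4%, and held 10 CpG dinucleotides and no GC box. That shown for Igfbp2 had 68.3% GC, 13 CpGs and 3 GC boxes. The stretch at the second RefSeq start of Igfbp2, not shown, had 56.1% GC, 8 CpGs and no GC box. The stretches of Igf1r and Irs2 had 77.4% and 73.9% GC, with 38 and 31 CpGs and with 2 GC boxes and 1. For comparison, the median over all 32817 RefSeq promoter stretches of that length was 51.7% GC and 5 CpGs, and 29.8% of them held a GC box. The 8-base half-site bound by T-box factors (AGGTGTGA, searched on both strands) was present in 1.03% of all stretches and in none of the members', which says only that these letters are not in these windows. The same holds for the FOXO site GTAAACA, found in 2.91% of all stretches. The TATA box, searched as the exact letters TATAAA and found in 11.8%, was present among the members in the stretch of Igfbp4 alone. Variants of these letters were not searched for. No member's stretch held 2 different motifs.

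Depth was 3803561 to 6293907 counts per library. Mutant library 4 stood apart: it had 14850 genes with a count, where the other 7 libraries had 18213 to 19134. The targeted gene Tbx1 had 22 to 65 counts in parental and 0 to 3 counts in mutant libraries. All 8 markers fixed for cardiac mesoderm (such as Gata4, Hand2 and Isl1) were detected in both lines, but Nkx2-5 and Tbx5 had 0 counts in mutant library 4. Of the 8, 7 had a negative and 1 a positive log2 fold change, mutant over parental, with a median of -0.65. By edgeR, 5 had an unadjusted p under 0.05 (11.9% of all tested genes), and none passed after adjustment. In the comparison over all tested genes, 99 genes were higher and 89 lower in the mutant line by edgeR's quasi-likelihood test with a Benjamini-Hochberg adjusted p under 0.05. With libraries scaled by their size alone, in place of the trimmed mean of M values (TMM), the numbers were 100 and 57.

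Of the 8 tested IGF members, 1 was called higher in the mutant line, against a background of 0.745% of all tested genes, and 0 were called lower, against 0.670%. The called member was Igfbp5. Without a correction for multiple testing, 4 of the 8 had a p under 0.05, where 11.9% of all tested genes did. These were Igfbp5, which was higher, and Igf1r, Irs2 and Igfbp2, which were lower in the mutant line. The 3 lower genes had no overlap between the lines, in the sense that each mutant library was below each parental one. Such a pattern was found for 4.04% of all tested genes, and the opposite one, each mutant library above each parental one, for 3.49% and for 0 of the 8 members. The median log2 fold change of the 8 members was -0.21, and that of all tested genes was 0.001. Which members passed the threshold depended on the tool: DESeq2 called Igf1r, Irs2 and Igfbp2 but not Igfbp5, and limma-voom called Igfbp5 and Igf1r. In RNA from whole cultures, fewer cells of a type and less RNA per cell cannot be told apart.

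Among the binding proteins, Igfbp5 rose in the mutant line. IGFBP5 is a secreted protein that binds IGFs and also extracellular matrix. Its level, as TMM-scaled CPM (counts scaled to a common library total), was 353, 436, 478 and 617 in parental libraries 1 to 4. Mutant libraries 1 to 4 had 547, 647, 1036 and 980 CPM. The lines overlapped only in that parental library 4 was above mutant library 1. The means were 471 ± 110 CPM for the parental and 802 ± 242 CPM for the mutant line (SD, n = 4), a 1.70-fold difference. On the log2 scale the difference was 0.77 ± 0.18 (SE), and edgeR gave an adjusted p of 0.0398. Exact permutation of the libraries between the lines (two-sided, 70 assignments) gave p = 0.0571, and the design allows no p below 0.0286.

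The call for Igfbp5 was close to the threshold and depended on the fit. It was lost when single libraries were left out, at an edgeR adjusted p of 0.129, 0.181 and 0.131 without parental library 1, 2 or 3, and of 0.154 and 0.0829 without mutant library 3 or 4, and DESeq2 gave an adjusted p of 0.117. Of the 15 alternative fits, 9 kept the call and 6 lost it. The edgeR adjusted p fell to 0.000939 once replicate number was added as a term, and to 2.79e-09 once low-count genes were kept. Each mutant library was above the parental library of the same number, but the labels do not say whether such libraries were paired. In all 15 alternative fits the log2 fold change was positive, between 0.61 and 0.92.

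**Figure D1:**
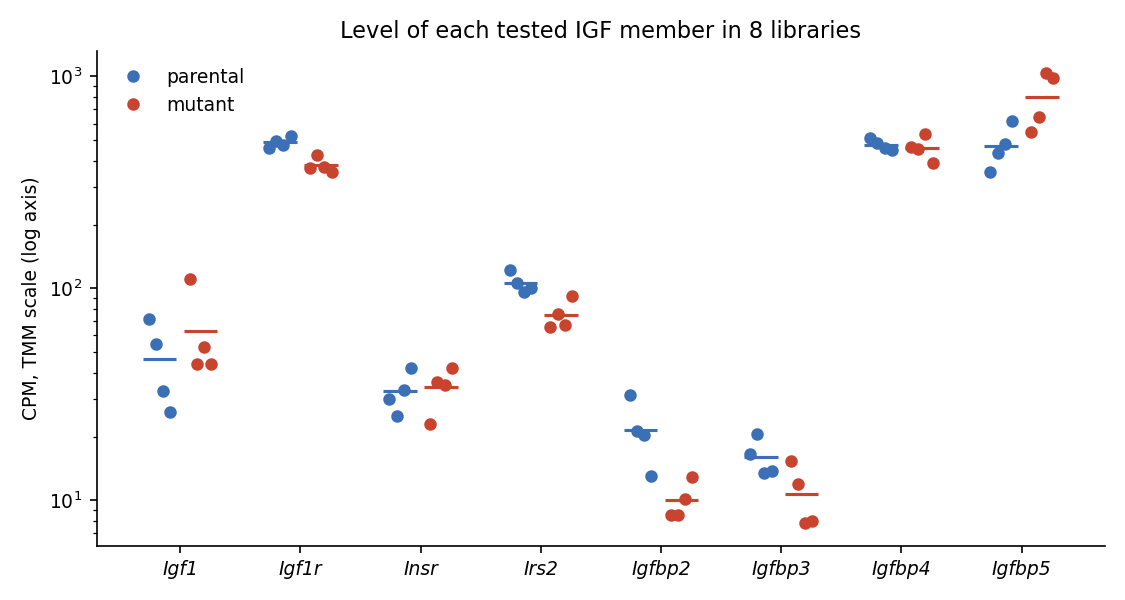
CPM on the TMM scale (log axis) for the 8 tested members, with 1 point per library and a bar at the mean of the 4 libraries of each line. The points of Igf1r, Irs2 and Igfbp2 in mutant libraries all lie below those in parental libraries, while those of Igfbp5 lie higher in the mutant line on average, with overlap.

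Igfbp2 encodes a secreted binding protein that is abundant in embryonic tissues. Its levels were 31.5, 21.3, 20.4 and 13.1 CPM in parental libraries 1 to 4 and 8.57, 8.50, 10.2 and 12.9 CPM in mutant libraries 1 to 4. The highest mutant library was just below the lowest parental one. The log2 fold change was -1.11 ± 0.31 (SE), the largest in size among the 8 members, but the edgeR adjusted p was 0.0867 and so missed the threshold. Exact permutation gave p = 0.0286 for Igfbp2, the lowest this design can reach. Any gene without overlap between the lines gives this value, so it adds nothing to the lack of overlap. The call was made in 3 of the 15 alternative fits: with DESeq2, with no low-count filter and without parental library 4. The adjusted p of Igfbp2 ran from 0.0325 with DESeq2 to 0.305 with edgeR without parental library 1.

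Igfbp2 and its chromosomal neighbour Igfbp5 had log2 fold changes of opposite sign. The ratio of Igfbp5 to Igfbp2 counts was 11.2 to 47.2 in parental and 63.9 to 102 in mutant libraries, without overlap, a ratio that was examined after the values were seen. Of the genes with the next start on either side of this pair, Rpl37a, a ribosomal protein gene, passed the low-count filter. It had a log2 fold change of -0.11 ± 0.10 (SE, edgeR adjusted p 0.717). On the other side, 1700027A15Rik was below the filter, with at most 10 counts in any library.

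Igfbp4 and Igfbp3 are the other binding protein genes among the members. Igfbp4, whose protein is cut by the protease PAPPA to release IGFs, averaged 476 ± 28.1 CPM in the parental and 461 ± 60.1 CPM in the mutant line (SD, n = 4). The lines overlapped, and the log2 fold change of -0.05 ± 0.10 (edgeR adjusted p 0.920) turned to 0.025 without mutant library 4. Igfbp3, the main carrier of IGFs in blood, averaged 16.1 ± 3.36 and 10.8 ± 3.58 CPM, again with overlap. Its log2 fold change of -0.57 ± 0.32 did not pass (edgeR adjusted p 0.517).

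Igfbp5 held a larger mean share of the binding protein counts in the mutant line. Of the summed counts of Igfbp2, Igfbp3, Igfbp4 and Igfbp5, Igfbp5 held 38.7%, 45.2%, 49.3% and 56.5% in parental libraries 1 to 4. Its share was 52.7%, 57.7%, 65.2% and 70.5% in mutant libraries 1 to 4, with only parental library 4 reaching into the mutant range. The share thus rose with replicate number in both lines, a pattern that was not tested, and the labels do not say what the numbers stand for. The 95% exact Clopper-Pearson intervals of these shares had half-widths of at most 1.38 percentage points, for counting error only. The mean share was 47.4% ± 7.43 in parental and 61.5% ± 7.85 in mutant libraries (SD, n = 4). Igfbp4 held 48.7% ± 6.23 and 36.8% ± 7.45. Igfbp2 held 2.24% ± 0.93 and 0.788% ± 0.121, with no overlap between the lines. The summed level of the 4 genes was 985 ± 76.3 CPM in the parental line and 1285 ± 253 CPM in the mutant line. These shares are descriptions and were not tested. They use the same counts as the levels above and are parts of the same sum, so a larger Igfbp5 share lowers the others.

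**Figure D2:**
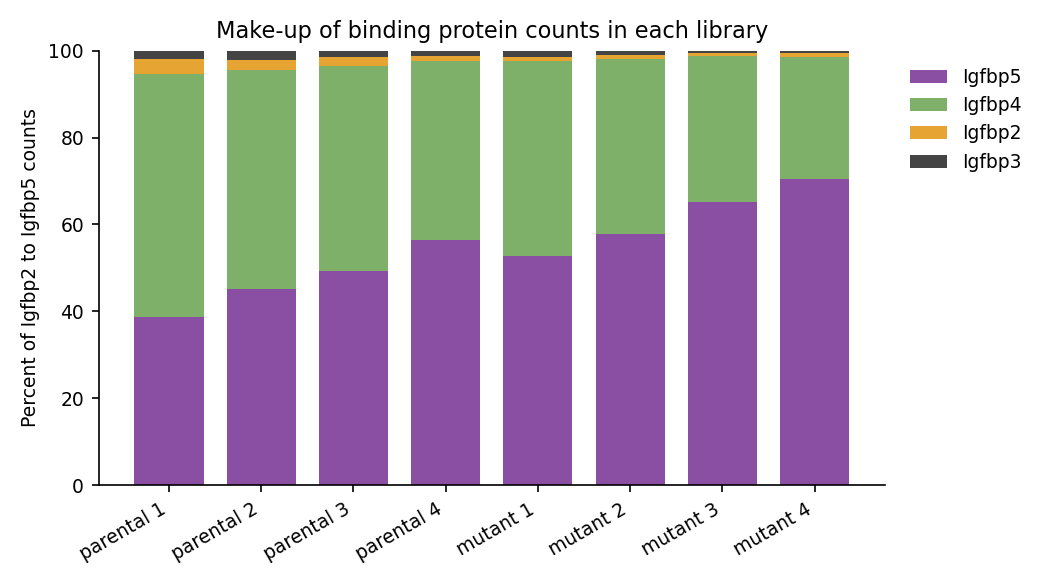
Percent of the summed Igfbp2, Igfbp3, Igfbp4 and Igfbp5 counts held by each gene, with 1 bar per library from parental library 1 to mutant library 4. Igfbp5 and Igfbp4 make up nearly all counts, and the Igfbp5 share runs from 38.7% to 56.5% in parental and from 52.7% to 70.5% in mutant libraries.

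The ligand gene Igf1 was variable within both lines. It was at 71.6, 54.7, 32.9 and 26.1 CPM in parental libraries 1 to 4 and at 111, 44.2, 53.2 and 44.0 CPM in mutant libraries 1 to 4. Mutant library 1 was far above the other 3, which lay inside the parental range. The log2 fold change was 0.45 ± 0.31 (SE, edgeR adjusted p 0.623), and 0.02 without mutant library 1.

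Of the 2 receptor genes, Igf1r was lower in every mutant library than in any parental one, without passing the test, and Insr overlapped between the lines. Igf1r, which encodes the main signalling receptor for IGF1 and IGF2, was at 462, 494, 477 and 526 CPM in parental libraries 1 to 4. Mutant libraries 1 to 4 had 369, 425, 375 and 354 CPM, all below the lowest parental value. The spread was small in both lines, at 490 ± 27.5 and 381 ± 30.9 CPM (SD, n = 4). The log2 fold change of Igf1r was -0.36 ± 0.10 (SE), and its edgeR adjusted p of 0.0732 was over the threshold. Exact permutation gave p = 0.0286, the lowest this design can reach, which again only restates the lack of overlap. DESeq2 gave an adjusted p of 0.00593, the lowest among the alternatives. Igf1r was called in 3 of the 15 alternative fits, and the highest adjusted p was 0.231, by edgeR without parental library 2. Insr averaged 32.7 ± 7.15 CPM in the parental and 34.2 ± 8.18 CPM in the mutant line. Its log2 fold change of 0.06 ± 0.22 (edgeR adjusted p 0.957) changed sign without parental library 2 or without mutant library 4.

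Of the receptor substrates, Irs2 was likewise lower in every mutant library without passing the test, and Irs1 was scarcely detected. Irs2 was at 122, 106, 96.7 and 101 CPM in parental libraries 1 to 4 and at 65.7, 75.6, 67.0 and 92.1 CPM in mutant libraries 1 to 4. Mutant library 4 was closest to the parental range but did not enter it. On the log2 scale the difference of Irs2 was -0.51 ± 0.14 (SE). It had an edgeR adjusted p of 0.0941 and an exact permutation p of 0.0286, the latter fixed by the lack of overlap. Without mutant library 4 the edgeR adjusted p of Irs2 was 0.0275, past the threshold. Irs2 was called in 3 of the 15 alternative fits, and the highest adjusted p was 0.258, by edgeR without parental library 1. Irs1 had 5, 1, 2 and 9 counts in parental and 0, 5, 14 and 0 counts in mutant libraries 1 to 4. At this depth a difference in Irs1 was not detectable, since 4 of its 8 values lay at or under the floor of 3 counts.

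**Figure D3:**
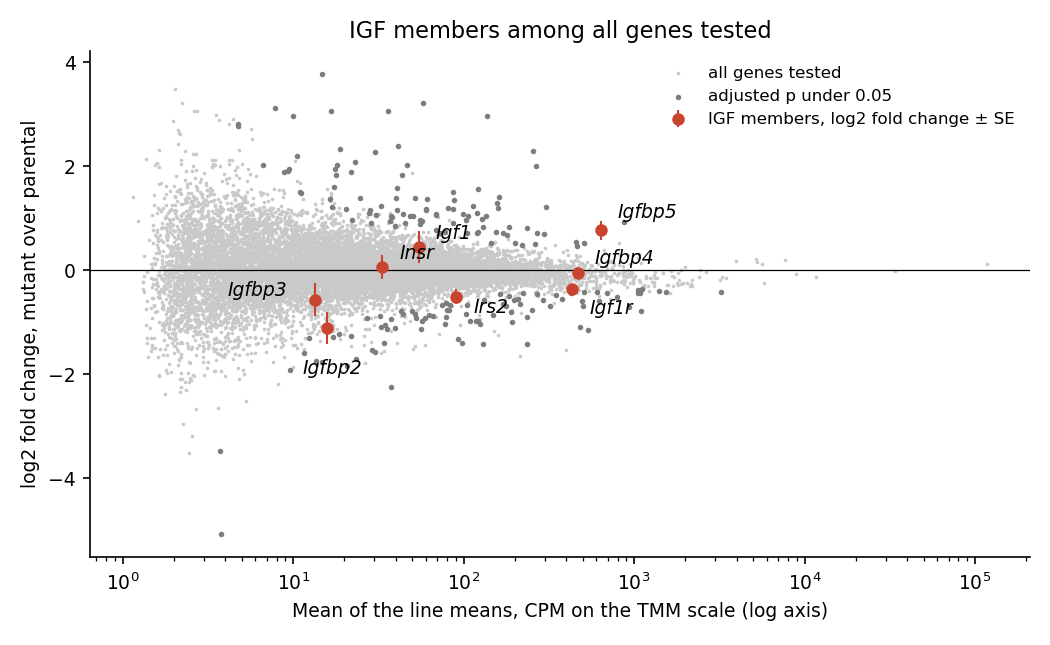
Log2 fold change (mutant over parental) against mean CPM on the TMM scale (log axis) for all 13280 tested genes, with genes past the threshold in dark grey and the 8 tested IGF members in red with their SE. Igfbp5 is the member past the threshold. Igfbp2, Igf1r and Irs2 lie below 0, and Igfbp4 and Insr lie close to it.

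QuantSeq reads the 3′ end of each transcript, so that CPM levels can be set side by side between genes without a length correction, as far as each gene's 3′ ends were annotated. In parental libraries the order of mean CPM was Igf1r, Igfbp4, Igfbp5, Irs2, Igf1, Insr, Igfbp2, Igfbp3 and Irs1. The ranges of Igf1r, Igfbp4 and Igfbp5 overlapped from each gene to the next, as did those from Igf1 down to Igfbp3. Irs2 stood clear of its neighbours on both sides, and Irs1 lay below Igfbp3 in every parental library. In mutant libraries Igfbp5 came first, and its lowest library at 547 CPM was above the highest Igfbp4 library at 536 CPM. There the ranges of Igfbp4 and Igf1r overlapped, as did those of Irs2 and Igf1 and those of Igfbp3 and Igfbp2.

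The genes whose pattern over the 8 libraries was most like that of Igfbp5 were Trps1, Cntfr and Slc20a1. Trps1 encodes a GATA-type zinc finger repressor, Cntfr a cytokine receptor subunit and Slc20a1 a phosphate transporter. Likeness was the root mean square difference of log2 CPM, after each gene was centred on its own mean, over 9025 other genes with a mean of at least 10 CPM. The differences were 0.153, 0.183 and 0.195, where the median gene differed by 0.573. Trps1 averaged 43.5 ± 5.99 CPM in the parental and 72.8 ± 19.3 CPM in the mutant line (SD, n = 4), and its log2 fold change of 0.74 ± 0.19 (SE) missed the threshold (edgeR adjusted p 0.0599). Cntfr and Slc20a1 had 0.74 ± 0.28 and 0.70 ± 0.21 (edgeR adjusted p 0.264 and 0.123). Likeness included the difference between the lines, so fold changes near that of Igfbp5 follow from how these genes were picked.

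Of the marker lists of other cell types, the mesenchymal and primitive erythroid sums did not overlap between the lines. The sums of cardiomyocyte, endothelial, endoderm, neural and pluripotent markers did overlap. The summed level of the 7 mesenchymal and fibroblast markers was 939 to 1397 CPM in the parental and 2013 to 2532 CPM in the mutant line, without overlap, and none of the 7 was at 0 in any library. Of them, 4 were called higher, against 0.745% of all tested genes. The summed level of the 7 cardiomyocyte markers was 350 to 2336 CPM in the parental and 88.0 to 626 CPM in the mutant line. These ranges overlapped, and mutant library 4 was lowest. None of the 7 was at 0, and none was called by edgeR, with 6 at an unadjusted p under 0.05 (11.9% of all tested genes). The 6 primitive erythroid markers summed to 112 to 166 and 603 to 882 CPM, again without overlap. Of them, the 3 globin genes Hba-x, Hbb-bh1 and Hbb-y were called higher (0.745% of all tested genes). Gata1, Klf1 and Alas2 overlapped between the lines, at edgeR adjusted p of 0.783, 0.635 and 0.796. Of these 6, Alas2 was at 0 in at least 1 library. The part of these cell types in the differences of Igfbp5, Igfbp2, Igf1r and Irs2 was not tested.

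Beyond the 9 members, 100 genes of the pathway were followed in 5 lists, and 86 of them could be tested. Of these, 1 was called higher (background 0.745%) and 1 lower (0.670%), and 10 had an unadjusted p under 0.05, a share close to the 11.9% of all tested genes. The median log2 fold change of the 86 was -0.004. The called genes were Akt1 and Lin28a.

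**Figure D4:**
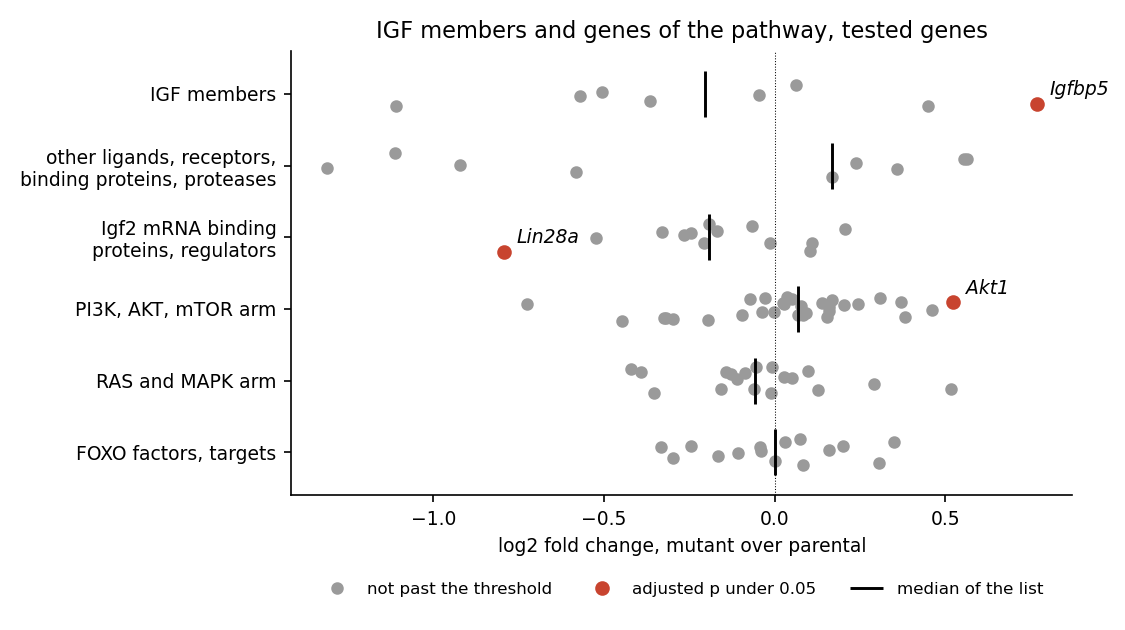
Log2 fold change (mutant over parental) of the tested genes of the IGF members and of 5 lists of pathway genes, with 1 point per gene, red for an adjusted p under 0.05, and a black line at the median of each list. Igfbp5, Lin28a and Akt1 are the 3 genes past the threshold.

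Other ligands, receptors, binding proteins and their proteases included 9 testable genes of 18. None of the 9 was called by edgeR or DESeq2, and 2 had an unadjusted p under 0.05 (11.9% of all tested genes). The embryonic ligand gene Igf2 was low, at 3.19 ± 1.03 CPM in the parental and 4.66 ± 2.35 CPM in the mutant line (SD, n = 4, edgeR adjusted p 0.791). Igf2r, the receptor that takes up IGF2 for breakdown, was at 683 ± 17.4 and 767 ± 92.2 CPM (adjusted p 0.542). The protease gene Pappa was at 10.8 ± 4.91 and 4.36 ± 3.53 CPM, with a log2 fold change of -1.31 ± 0.55 (edgeR adjusted p 0.340). Igfbpl1, a binding protein relative, had -0.92 ± 0.42 (edgeR adjusted p 0.395). Igfbp7, and Stc2, an inhibitor of PAPPA, had log2 fold changes of 0.36 and 0.56 (edgeR adjusted p 0.917 and 0.822) at means under 5 CPM. Igfbp1, Igfbp6 and Pappa2 did not pass the filter, and their highest counts in a library were 9, 1 and 4.

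Of the 13 genes for Igf2 mRNA binding proteins and regulators of IGF signalling, 1 was called lower (0.670% of all tested genes). An unadjusted p under 0.05 was found for 5 (11.9% of all tested genes). Lin28a encodes an RNA-binding protein that blocks let-7 maturation. It fell from 246, 236, 242 and 238 CPM in parental libraries 1 to 4 to 111, 184, 133 and 126 CPM in mutant libraries 1 to 4, without overlap. Its log2 fold change of -0.79 ± 0.14 (SE) had an edgeR adjusted p of 0.00415, and all 15 alternatives kept it under the threshold. The 3 Igf2 mRNA binding protein genes were not called by edgeR, and DESeq2 called Igf2bp2 lower. Igf2bp1, Igf2bp2 and Igf2bp3 had log2 fold changes of -0.25 ± 0.09, -0.33 ± 0.10 and -0.21 ± 0.10 with edgeR adjusted p of 0.245, 0.111 and 0.415. The lines did not overlap for Igf2bp2, at 501 ± 45.0 and 399 ± 19.1 CPM, or for Igf2bp3. With Lin28a, 3 of the 13 genes were lower in every mutant library than in any parental one, against 4.04% of all tested genes. Grb10, which encodes an adaptor that dampens receptor signalling, was at 733 ± 28.9 and 790 ± 84.9 CPM (adjusted p 0.724).

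In the PI3K, AKT and mTOR arm, 1 of 31 tested genes was called higher (0.745% of all tested genes). The same gene was the 1 with an unadjusted p under 0.05 (11.9% of all tested genes). The median log2 fold change was 0.07. Akt1 encodes the kinase that carries the signal from PI3-kinase. It rose from 160, 156, 186 and 159 CPM in parental libraries 1 to 4 to 265, 227, 235 and 223 CPM in mutant libraries 1 to 4, without overlap. The difference was 0.52 ± 0.11 (SE) in log2 units, at an edgeR adjusted p of 0.0183. Without parental library 1, 2 or 4 or mutant library 1 the adjusted p of Akt1 was 0.0632, 0.115, 0.0542 and 0.0734.

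In the RAS and MAPK arm, 0 of 18 tested genes were called by edgeR or DESeq2. An unadjusted p under 0.05 was found for 2 (11.9% of all tested genes), and the median log2 fold change was -0.06. Of 15 tested FOXO factors and genes known as FOXO targets, 0 were called by either tool. An unadjusted edgeR p under 0.05 was found for 0 (11.9% of all tested genes), and the median was 0.001. FOXO factors are held out of the nucleus by AKT. Foxo1 and Foxo3 had log2 fold changes of 0.35 ± 0.25 and 0.30 ± 0.17 (edgeR adjusted p 0.642 and 0.527). Foxo3 was higher in every mutant library than in any parental one, as were 3.49% of all tested genes.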

How the data were processed

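PolyA RNA was made into QuantSeq 3′ libraries, per the labels' protocols. The authors deposited 1 table of raw read counts, with a column for each library and no pooling. The submitters' processing notes name STAR, featureCounts and build mm10, without versions, and the table's name gives forward-strand counting. The annotation and any removal of duplicate reads are not given in the sources used here.

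Gene identifiers were matched without version to GENCODE M21 symbols and coordinates (55141 of 55487 matched). Promoter sequences are RefSeq's. Genes were filtered with filterByExpr, which left 13280 genes holding 99.5% of counts, and were scaled by TMM. Lines were compared with edgeR 4.0.16 (glmQLFit, glmQLFTest, R 4.3.3), with an intercept and the line as terms, and p-values were adjusted over all 13280 genes with a threshold of 0.05. Each SE is the fold change divided by the root of F. The exact permutation tests of the 8 members used log2 CPM with a prior count of 2. The fit was tested on simulated data. Pairs of libraries within a line differed by more than sampling noise (chi-square per degree of freedom 7.04 to 24.2 in 12 pairs). No pair was thus a mere recount of the same library, but separate cultures cannot be told from this. Each library counted as 1 sample. Intervals and the floor of 3 counts cover counting error only, since no molecular identifiers are mentioned.

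The members, lists and tests were chosen with earlier results of these data known. All members were named, along with listed pathway genes past the threshold, a fixed set of others, neighbours of the Igfbp pairs and the 3 genes most like a called member. Alternatives were relative log expression (RLE) size factors, library size alone, no low-count filter, a minimum mean of 10 counts, DESeq2 1.42.0, limma-voom (limma 3.58.1), the replicate number as a block, and leaving out each library.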

Additional observations from a re-analysis of the deposited data

Results flagged for a closer look

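The Igf1 level in mutant library 1, 111 CPM, lay far from the other 3 mutant libraries, which were at 44.0 to 53.2 CPM. The gap to the nearest library was 0.861 of the range of the 4, above Dixon's critical value for a 95% level. It was the 1 such library among 26 groups of 4 libraries examined for the members' levels and binding protein shares, and chance alone flags about 1 in 20 groups.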

How the results depend on the processing

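Over all genes, 188 passed the threshold, against 439 with no low-count filter, 405 with DESeq2 and 103 to 235 when single libraries were left out. Of the IGF members, 1 passed, against 3 with no low-count filter, 3 with DESeq2, 2 with limma-voom and 0 to 2 when single libraries were left out. None was called without parental library 1, 2 or 3 or without mutant library 3, and without mutant library 4 Irs2 was called in place of Igfbp5. The cause was not tested. Of the pathway genes beyond the members, 2 passed, against 1 to 2 when single libraries were left out. The log2 fold change of Insr ranged from -0.059 to 0.21 and that of Igfbp4 from -0.133 to 0.025 when single libraries were left out, so that neither has a direction. The other 6 tested members, Akt1 and Lin28a kept their sign in all 15 alternatives. Leaving out single libraries gave a difference in the Igfbp5 share of binding protein counts of 11.1 to 17.1 percentage points, against 14.1 with all. A replicate block in the fit gave 234 genes and, of the members, 1, Igfbp5. Over all tested genes, same-numbered libraries deviated together with correlations of -0.03 to 0.10, and 3 of 8 libraries correlated best with their own number. The Igfbp5 share nevertheless rose with replicate number in both lines. No label states a pairing. Low counts limit Irs1, Igfbp1 and Igfbp6.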
